A study of Drosophila melanogaster with 15 samples.

Results

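The genes described are the translation initiation factors of Drosophila melanogaster that carry a platform gene symbol starting with eIF. They comprised 40 genes on 44 probe sets, out of 11982 genes with a single symbol and 18769 probe sets other than controls. Where a gene had several probe sets, the one whose values averaged highest across the 15 arrays stood for it, which was a choice only for eIF4B, with 4 probe sets, and eIF4EHP, with 2. Another 2 probe sets name both eIF4E7 and CG17010 and were not used. The rule for the members uses the symbol and the mean over all arrays, and it was written with earlier results of these data known.

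The arrays hold RNA from neurons sorted by fluorescence from brains of third-instar larvae, in 5 groups of 3. The ventral lateral neurons (LNvs) are the pacemaker cells that make the neuropeptide Pdf, and the series description counts 8 of them per brain. Wild-type LNvs from a yw background were labelled by Pdf-Gal4 with UAS-GFP and taken at zeitgeber time (ZT) 3 and ZT15, in a cycle of 12 h light and 12 h dark at 25 °C. LNvs of yw, per0 and of yw, cyc0 larvae were labelled by Pdf-RFP and taken at ZT15, so that reporter and mutation cannot be told apart. The last group consisted of neurons labelled by elav-Gal4 with UAS-GFP at ZT15. Their genotype label names no yw background, their tissue label reads as LNvs, and they are taken as elav neurons from title and genotype. The protocol names RFP for the sort of every array and about 1000 cells per array, so that an LNv array pools many brains. The gene per encodes a repressor of the activator pair CLK and CYC, and cyc encodes one partner of that pair.

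Initiation of translation loads a ribosome onto a messenger RNA. The eIF4F complex, made of the cap-binding protein eIF4E, the scaffold eIF4G and the RNA helicase eIF4A, binds the mRNA cap, and eIF4B stimulates the helicase. The small ribosomal subunit carries eIF1, eIF3, eIF5 and the eIF2 complex with the initiator tRNA, eIF2B recharges eIF2 with GTP, and eIF5B joins the subunits at the start codon. In the fly clock, translation of the per mRNA is itself a regulated step, and Ataxin-2 is among the proteins known to promote it.

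Values are log2 GCRMA values, deposited by the authors, with probe sets below background compressed towards a common floor. A log2 value of 4 in at least 3 of the 15 arrays was required for a test, and 26 of the 40 genes met it. Every adjusted p-value comes from the limma fit described below, adjusted by the Benjamini-Hochberg method over all 5829 probe sets tested. Levels are means ± SD (n = 3), and the level of a gene can be compared between groups but not with the level of another gene. The number of probe sets at 4 or above was 3520 to 5436 per array, and array values correlated with their own group at mean r of 0.785 to 0.913 across probe sets, lowest for cyc0 replicate 3 and wild-type ZT15 replicate 1. Pdf lay at 12.37 to 13.07 on the LNv arrays and at 3.06 to 4.49 on the elav arrays. In sorted samples of this kind fewer cells of a type and less RNA per cell cannot be told apart. The samples are called biological replicates, although the labels do not say whether they came from separate larvae, sorts or days, so that p-values measure the spread between these arrays.

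Among the 26 tested genes a difference between any of the 5 groups was called for 2, eIF4B and eIF3d1, by the limma F test over group means (adjusted p = 0.00336 and 0.0409). This compares with 14.2% of all tested probe sets, and 8 of the 26 had an unadjusted p under 0.05. The other 24 genes did not pass. The heat map of the 26 genes by array shows the low values of both genes in wild-type LNvs at ZT15.

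**Figure D1:**
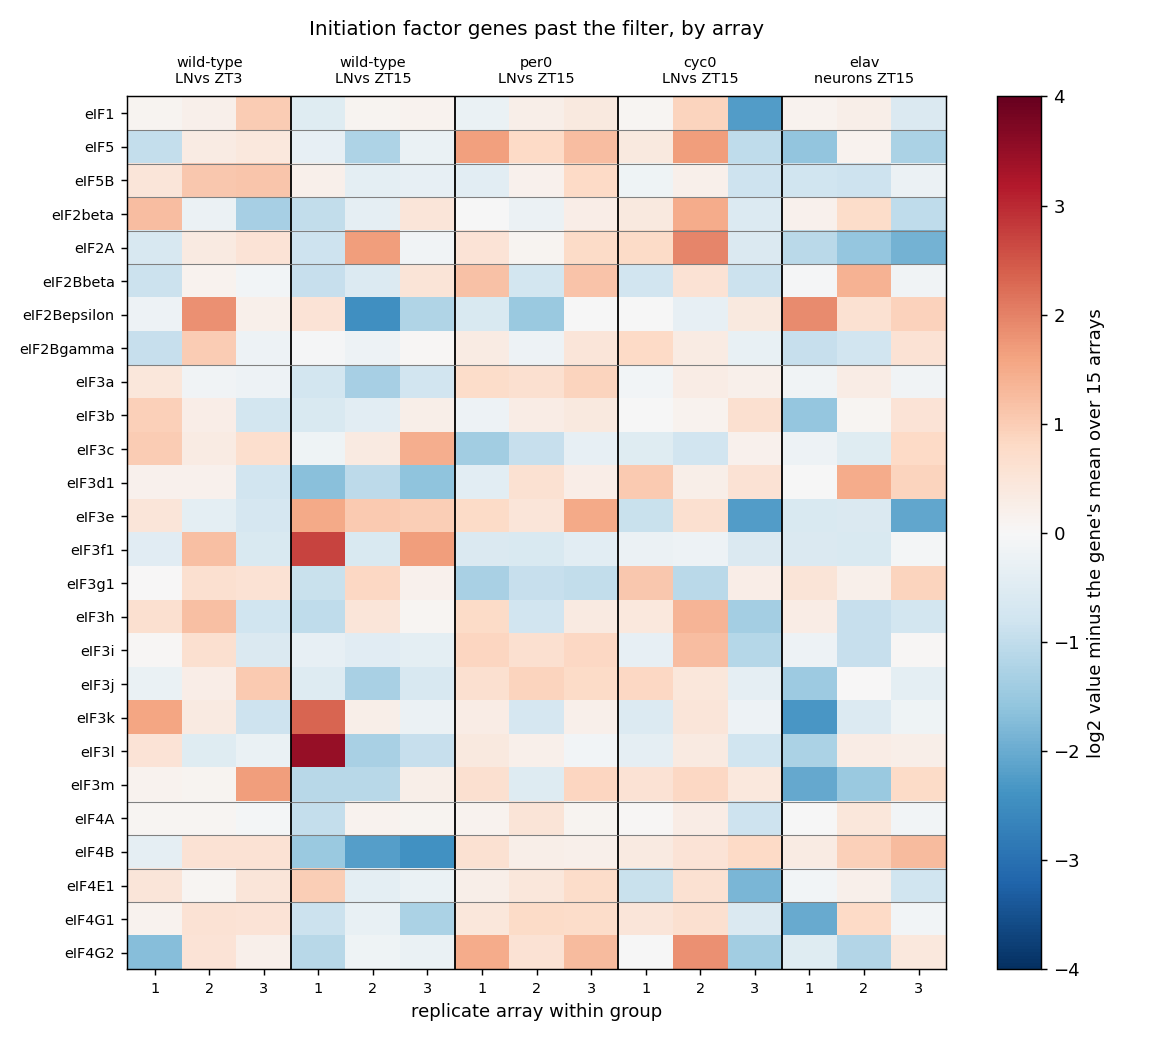
Log2 value of each of the 26 tested genes (rows) on each of the 15 arrays (columns, 3 replicates per group) minus the gene's mean over the 15 arrays, on a colour scale from -4 (blue) to 4 (red). The eIF4B and eIF3d1 rows are blue on the 3 wild-type ZT15 arrays, and single cells such as eIF3l on wild-type ZT15 replicate 1 (10.98) stand out from their group.

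The product of eIF4B (CG10837) stimulates the helicase eIF4A. In the probe set used, the gene was lower in wild-type LNvs at ZT15 than in the 4 other groups, and all 4 comparisons passed. It lay at 7.44, 6.75 and 6.51 on the wild-type ZT15 arrays. At ZT3 the wild-type arrays gave 8.59, 9.51 and 9.52. The per0 arrays gave 9.56, 9.18 and 9.15, the cyc0 arrays 9.29, 9.48 and 9.72, and the elav arrays 9.26, 9.90 and 10.21. The 3 wild-type ZT15 arrays thus lay below all 12 others without overlap in this probe set.

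The level of eIF4B was 6.90 ± 0.48 in wild-type LNvs at ZT15 and 9.79 ± 0.48 in elav neurons, 7.41-fold lower in the LNvs (log2 difference -2.89, SE 0.49, adjusted p = 0.00131). Against ZT3, at 9.20 ± 0.53, it was 4.94-fold lower at ZT15 (log2 difference -2.30, SE 0.49, adjusted p = 0.0333). It was 5.26-fold higher in per0 than in wild type at ZT15 (log2 difference 2.40, adjusted p = 0.0241) and 6.03-fold higher in cyc0 (2.59, adjusted p = 0.00704). These 4 comparisons share the same 3 wild-type ZT15 arrays and are not independent of each other. Between cyc0 and per0 the difference was 0.20 with a 95% interval of -0.84 to 1.23, between per0 and elav neurons -0.49 (-1.53 to 0.54), and between cyc0 and elav neurons -0.30 (-1.33 to 0.74), none of which passed.

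The calls of eIF4B against elav neurons and against cyc0 were kept with any single array left out. The call against ZT3 was lost without 6 of the arrays, ZT3 replicates 2 and 3, wild-type ZT15 replicates 2 and 3, per0 replicate 1 and cyc0 replicate 1 (largest adjusted p = 0.163). The call against per0 was lost without wild-type ZT15 replicates 2 or 3 or any of the per0 arrays (largest adjusted p = 0.0981).

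The 4 probe sets of eIF4B did not run in parallel, as the plot of its probe sets by group shows. The second probe set gave 7.35, 6.55 and 6.75 in wild-type LNvs at ZT15, against 8.47, 9.01 and 8.33 at ZT3 and 9.20, 8.90 and 8.96 in per0, again without overlap. The differences were -1.72 against ZT3 (SE 0.60, adjusted p = 0.299) and 2.14 for per0 against wild type (adjusted p = 0.0954), and neither passed. In cyc0 this probe set gave 8.51, 9.21 and 6.50, so that replicate 3 lay at the wild-type level. The difference of 1.19 for cyc0 against wild type did not pass either (adjusted p = 0.293).

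In elav neurons the second probe set read 6.69, 7.36 and 7.07, close to wild-type LNvs at ZT15 (difference -0.16, 95% interval -1.43 to 1.11), where the first probe set had its largest difference. It was higher in per0 than in elav neurons (1.98, adjusted p = 0.0455). The other 2 probe sets ranged from 2.49 to 6.96 and from 2.63 to 6.07, with overlapping groups and no call. With the 4 probe sets averaged, the differences of eIF4B were -0.92 against elav neurons, -1.38 against ZT3, 0.89 for per0 and 0.52 for cyc0, and none passed (largest adjusted p = 0.591). Which transcripts of the gene each probe set reads is not given in the sources used here.

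**Figure D2:**
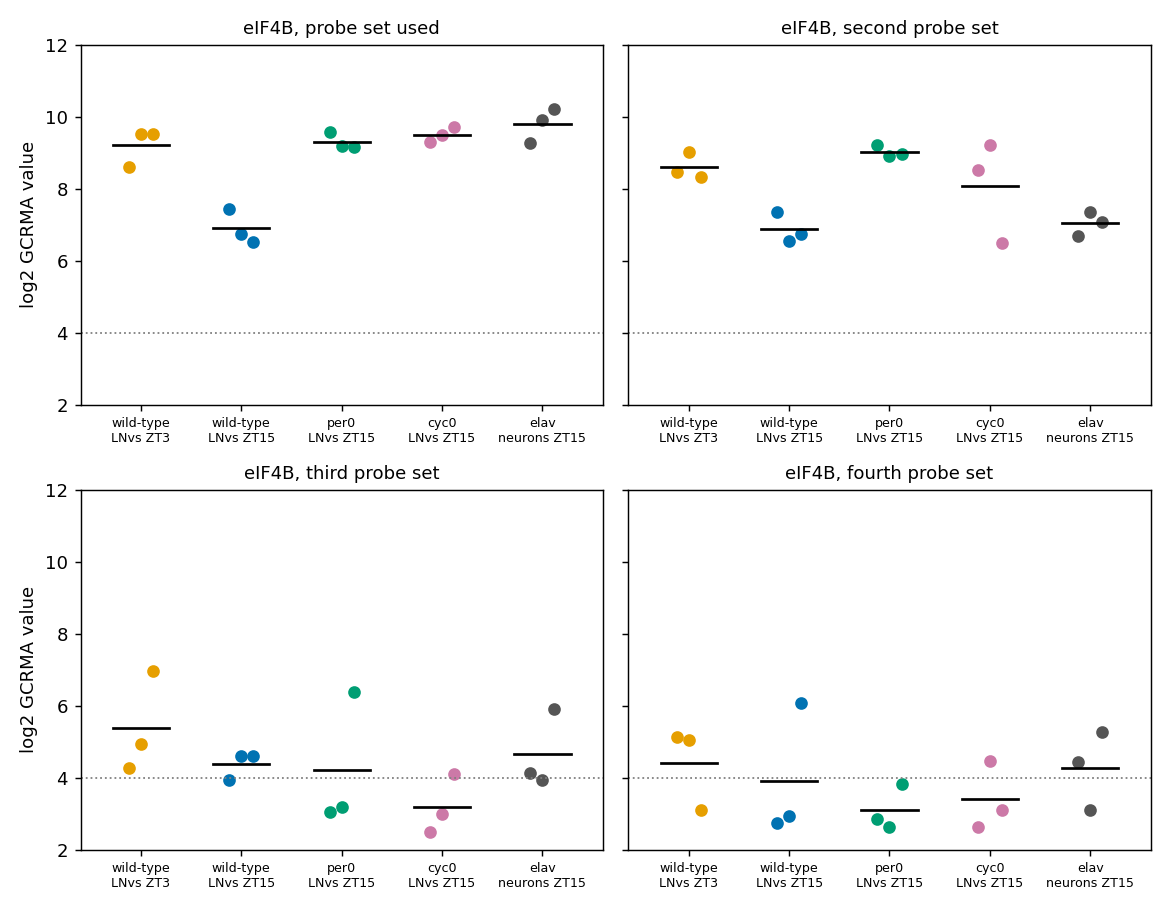
Log2 GCRMA value (vertical axis) of the 4 probe sets of eIF4B in 5 groups, with a point per array, a bar at the group mean and a dotted line at the working level of 4. In the probe set used, the wild-type ZT15 arrays (6.51 to 7.44) lie below all others, and in the second the elav arrays (6.69 to 7.36) lie beside them.

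The eIF3 complex binds the small ribosomal subunit during initiation, and its 13 subunits a to m were all represented among the tested genes. One of them passed the F test. The subunit gene eIF3d1 (CG10161), for subunit d, which in human cells can bind the cap of some mRNAs, gave 6.04, 6.66 and 6.10 in wild-type LNvs at ZT15. It gave 7.87, 7.86 and 6.94 at ZT3, 7.29, 8.32 and 7.97 in per0, 8.75, 7.93 and 8.27 in cyc0, and 7.68, 9.18 and 8.59 in elav neurons. As for eIF4B, the wild-type ZT15 arrays lay below all 12 others.

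The level of eIF3d1 was 4.64-fold lower in wild-type LNvs than in elav neurons at ZT15 (log2 difference -2.21, SE 0.54, adjusted p = 0.0112) and 4.13-fold higher in cyc0 than in wild type (2.05, adjusted p = 0.0476). The differences against ZT3 (-1.29, adjusted p = 0.452) and for per0 against wild type (1.59, adjusted p = 0.162) did not pass. The F test of eIF3d1 lost its call without any 1 of 9 arrays (largest adjusted p = 0.122) and the cyc0 call without any 1 of 10 (largest adjusted p = 0.18), and both were lost after centring (adjusted p = 0.0717 and 0.101). Against elav neurons the call was lost only without elav replicate 2 (adjusted p = 0.0562). Without both arrays that correlated least with their group, the F test and the cyc0 call of eIF3d1 were lost (adjusted p = 0.112 and 0.129), while its call against elav neurons and all calls of eIF4B and eIF3e were kept.

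The subunit gene eIF3e (CG9677) ran the other way. It gave 7.71, 7.24 and 7.16 in wild-type LNvs at ZT15 and 6.96, 6.66 and 7.71 in per0, against 6.65, 5.78 and 5.51 at ZT3, 5.30, 6.81 and 3.95 in cyc0, and 5.57, 5.59 and 4.11 in elav neurons. Wild-type ZT15 and per0 arrays overlapped with each other, and both lay above the elav arrays. The gene was 4.86-fold higher in wild-type LNvs than in elav neurons at ZT15 (log2 difference 2.28, SE 0.67, adjusted p = 0.0318). For per0 against elav neurons the difference was 2.02 (adjusted p = 0.0629), for cyc0 against wild type -2.02 (adjusted p = 0.112) and for ZT15 against ZT3 1.39 (adjusted p = 0.572), and its F test gave adjusted p = 0.0575. The call against elav neurons was lost without any 1 of the wild-type ZT15 arrays or elav replicate 3 (largest adjusted p = 0.127), and with no filter on low values (adjusted p = 0.118).

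The gene for the largest eIF3 subunit, eIF3a, resembled eIF3d1 without passing. It lay at 6.97, 6.38 and 6.94 in wild-type LNvs at ZT15, below 8.15, 7.54 and 7.48 at ZT3, 8.43, 8.34 and 8.59 in per0, 7.59, 8.00 and 7.90 in cyc0, and 7.55, 7.99 and 7.55 in elav neurons. For per0 against wild type the difference was 1.69 (SE 0.45, adjusted p = 0.0838) and for ZT15 against ZT3 -0.96 (adjusted p = 0.566). The gene for the loosely bound subunit eIF3j gave 6.28, 5.49 and 6.17 at ZT15 and 6.53, 7.06 and 7.85 at ZT3 in wild type, and 7.45, 7.70 and 7.55 in per0 (per0 against wild type 1.59, adjusted p = 0.164). In cyc0 it gave 7.62, 7.25 and 6.45, and in elav neurons 5.36, 6.82 and 6.40. The elav arrays of eIF3j overlapped those of wild type at ZT15 (wild type against elav neurons -0.22, adjusted p = 0.848).

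The subunit genes did not vary as a block. Of the 13 tested, the mean of wild-type ZT15 was below that of per0 for 7, below that of cyc0 for 8 and below that of ZT3 for 9. In per0, eIF3c lay at 4.51, 5.00 and 5.57 and eIF3g1 at 5.55, 5.91 and 5.85, below all wild-type ZT15 arrays of each gene, at 5.74, 6.26 and 7.35 for eIF3c and 5.94, 7.67 and 7.02 for eIF3g1. Neither passed for per0 against wild type (-1.43 for eIF3c, adjusted p = 0.216, and -1.10 for eIF3g1, adjusted p = 0.365).

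Among the eIF3 genes eIF3f1, with the lowest mean of those tested, passed the filter through few arrays. It gave 6.71, 3.39 and 5.67 in wild-type LNvs at ZT15 and 3.54, 5.21 and 3.39 at ZT3. It gave 3.44, 3.40 and 3.57 in per0, 3.77, 3.79 and 3.44 in cyc0, and 3.41, 3.38 and 3.93 in elav neurons. Its 3 values at or above 4 all came from wild-type LNvs, and no comparison passed (F test adjusted p = 0.25). A single array set the spread of eIF3l, at 10.98 on wild-type ZT15 replicate 1 against 6.18 and 6.56 on the other arrays of that group. The remaining eIF3 genes, eIF3b, eIF3h, eIF3i, eIF3k and eIF3m, had group means between 5.00 and 8.09 and no call.

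**Figure D3:**
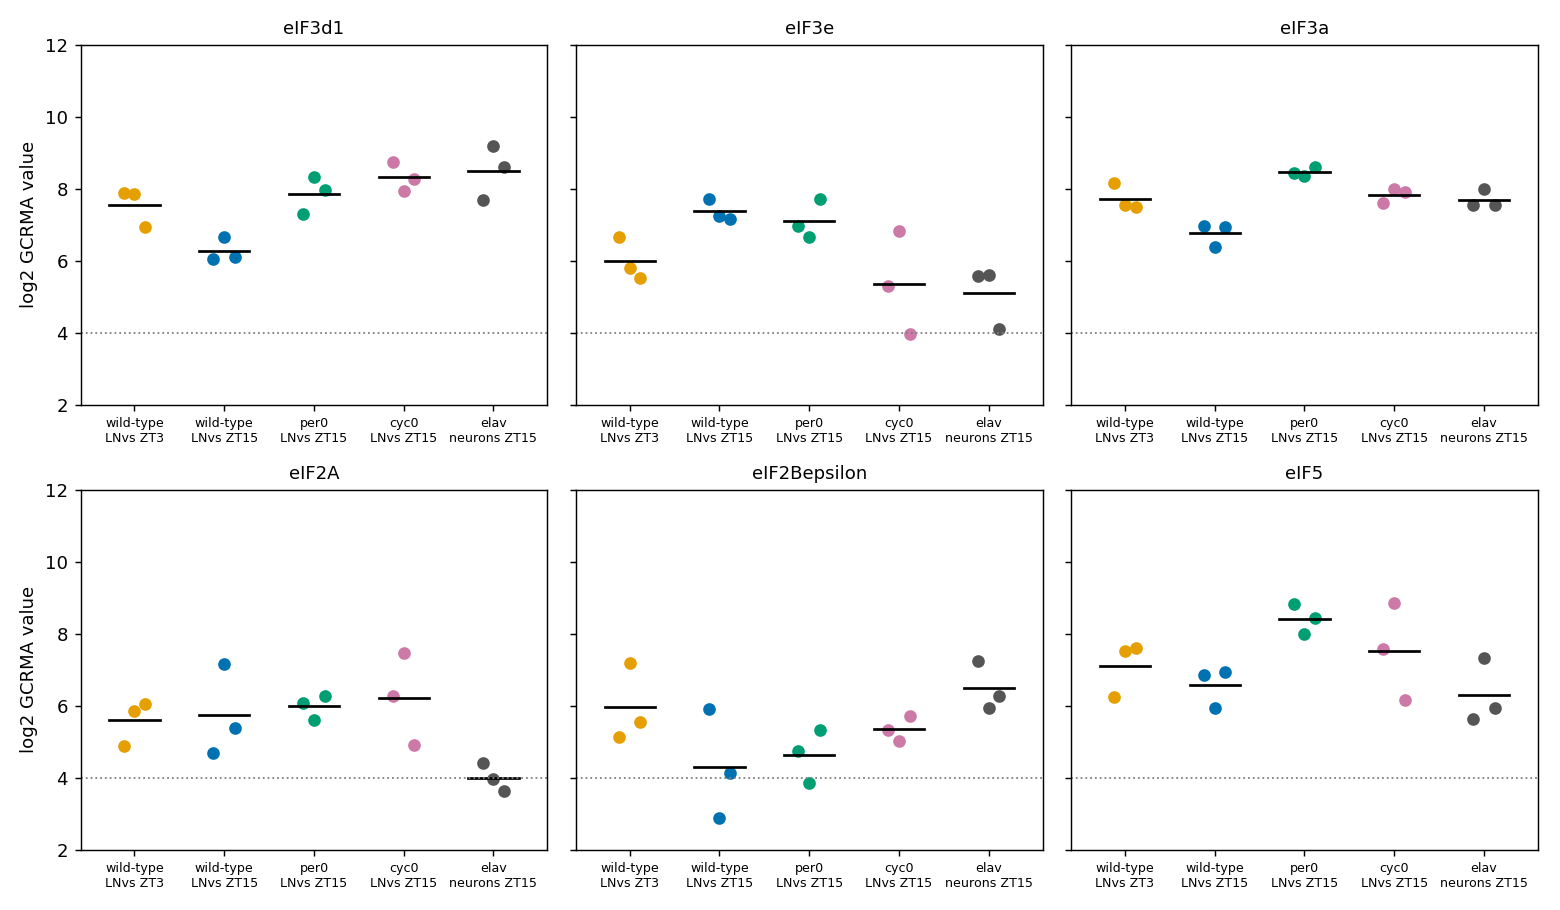
Log2 GCRMA value (vertical axis) of eIF3d1, eIF3e, eIF3a, eIF2A, eIF2Bepsilon and eIF5 in 5 groups, with a point per array, a bar at the group mean and a dotted line at the working level of 4. For eIF3d1 and eIF3a the wild-type ZT15 arrays lie below all others, and for eIF2A the elav arrays (3.62 to 4.42) lie below all LNv arrays.

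Of the tested genes for factors that select the start codon and join the subunits, eIF1, eIF5 and eIF5B, none passed any comparison. No gene with the symbol eIF1A was among the members. The gene eIF1, for the factor that guards start codon selection, lay at 9.39 to 11.01 on 14 arrays and at 7.76 on cyc0 replicate 3. Its differences were -0.53 for ZT15 against ZT3 (95% interval -1.91 to 0.85) and 0.20 for per0 against wild type (-1.18 to 1.58). The gene for the GTPase-activating factor eIF5 gave 8.84, 7.99 and 8.44 in per0. Wild-type LNvs at ZT15 gave 6.85, 5.95 and 6.94, and elav neurons 5.63, 7.34 and 5.94. The per0 arrays of eIF5 lay above all arrays of both of these groups, with differences of 2.12 against elav neurons (adjusted p = 0.0555) and 1.84 against wild type (adjusted p = 0.196). They also lay above the ZT3 arrays, at 6.25, 7.51 and 7.60. The cyc0 arrays, at 7.57, 8.87 and 6.17, overlapped those of per0 (cyc0 against per0 -0.89, adjusted p = 0.731). The gene for the subunit-joining GTPase eIF5B gave 5.30, 5.90 and 5.94 at ZT3 and 5.02, 4.44 and 4.49 at ZT15 in wild type, with a mean of 4.20 in elav neurons. Its ZT15 arrays lay below those of ZT3 without overlap, but the difference of -1.07 did not pass (adjusted p = 0.561).

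The gene eIF2beta, for a subunit of the tRNA-carrying eIF2 complex, was the only gene of that complex among the members. It had group means of 5.62 to 6.35 with SDs up to 1.29, and no comparison passed. The gene eIF2A, for a separate factor known in mammals for initiation without eIF2, was at its lowest in elav neurons, at 4.42, 3.97 and 3.62. The LNv arrays gave 4.87, 5.87 and 6.06 at ZT3, 4.68, 7.17 and 5.38 at ZT15, 6.07, 5.61 and 6.27 in per0, and 6.28, 7.46 and 4.92 in cyc0. All 12 LNv arrays lay above the elav arrays, although the differences of 1.74, 1.98 and 2.21 at ZT15 did not pass for wild type, per0 or cyc0 (adjusted p = 0.111, 0.08 and 0.072). The difference between ZT3 LNvs and elav neurons was not tested.

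Of the 5 genes of the eIF2B exchange factor, 3 were tested and none passed. The gene for the catalytic subunit, eIF2Bepsilon, gave 7.25, 5.95 and 6.26 in elav neurons and 5.90, 2.88 and 4.13 in wild-type LNvs at ZT15 (log2 difference -2.19, adjusted p = 0.0581). It gave 5.14, 7.19 and 5.54 at ZT3, 4.74, 3.85 and 5.32 in per0 and 5.32, 5.03 and 5.73 in cyc0, so that the elav arrays lay above the LNv arrays taken at ZT15 but not above those of ZT3. The gene eIF2Bbeta stayed near the working level, with values of 2.51, 3.53 and 3.28 at ZT3, 2.47, 2.84 and 3.88 at ZT15, 4.56, 2.65 and 4.53 in per0, 2.62, 3.95 and 2.52 in cyc0, and 3.33, 4.78 and 3.24 in elav neurons. It had 3 arrays at 4 or above, the fewest that the filter allows. The third tested gene, eIF2Bgamma, had group means of 4.88 to 5.52.

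In the cap-binding complex no gene besides eIF4B passed. The helicase gene eIF4A held a mean of 10.42 to 10.91 in every group, with a 95% interval of -1.31 to 0.79 for ZT15 against ZT3 and -0.56 to 1.54 for per0 against wild type. The cap-binding gene eIF4E1 had group means of 6.0 in cyc0 to 7.17 in per0. For cyc0 against per0 the difference was -1.17 (95% interval -2.45 to 0.10, adjusted p = 0.553), with cyc0 values of 5.82, 7.31 and 4.86.

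The scaffold gene eIF4G1 gave 7.17, 7.74 and 6.77 in wild-type LNvs at ZT15, against 8.17, 8.59 and 8.57 at ZT3 and 8.48, 8.78 and 8.75 in per0. In cyc0 it gave 8.51, 8.66 and 7.44 and in elav neurons 6.02, 8.83 and 7.91, both overlapping wild type. The ZT3 and per0 arrays lay above those of wild type at ZT15, but the differences of -1.22 and 1.44 did not pass (adjusted p = 0.612 and 0.264). Its relative eIF4G2, known for a role in male germ cell development, was tested as well and lay at 4.07, 6.32 and 6.0 at ZT3, 4.66, 5.61 and 5.52 at ZT15, 7.28, 6.36 and 7.04 in per0, 5.77, 7.60 and 4.39 in cyc0, and 5.29, 4.62 and 6.19 in elav neurons. The per0 arrays of eIF4G2 lay above those of wild type at ZT15 (1.64, adjusted p = 0.294).

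The 14 genes that did not reach the filter were largely relatives of tested genes. Of these, 12 never reached a log2 value of 4 on any array, with values between 2.32 and 3.73. They were the second genes eIF3d2, eIF3f2 and eIF3g2 of 3 eIF3 subunits, the cap-binding relatives eIF4E3, eIF4E4, eIF4E5, eIF4E6, eIF4E7 and eIF4EHP, and eIF4H2, eIF2D and eIF2Bdelta. In Drosophila eIF4E3 is known for its role in the testis, and eIF4EHP binds the cap without recruiting eIF4G and represses chosen mRNAs. For 3 pairs of eIF3 genes, the gene numbered 1 was tested and the gene numbered 2 was not, and of 7 eIF4E-type genes only eIF4E1 was tested. A probe set this low gives a bound on the level and does not show that the transcript is absent.

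The other 2 untested genes reached 4 on a single array each. The gene eIF2Balpha gave 5.28 on ZT3 replicate 3, with 2.53 and 3.52 on the other ZT3 arrays and 2.43 to 3.83 elsewhere. The gene eIF6, for a factor that keeps the large ribosomal subunit from joining too early, gave 3.14, 4.13 and 3.63 in elav neurons and 2.71 to 2.84 on the LNv arrays, without overlap. The eIF6 values lay near the lowest end of the scale and were not tested in the filtered fit. Of the 26 tested genes 19 were at 4 or above on all 15 arrays. By gene, 65% of the initiation factors passed the filter, against 39.4% of all 11982 named genes.

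**Figure D4:**
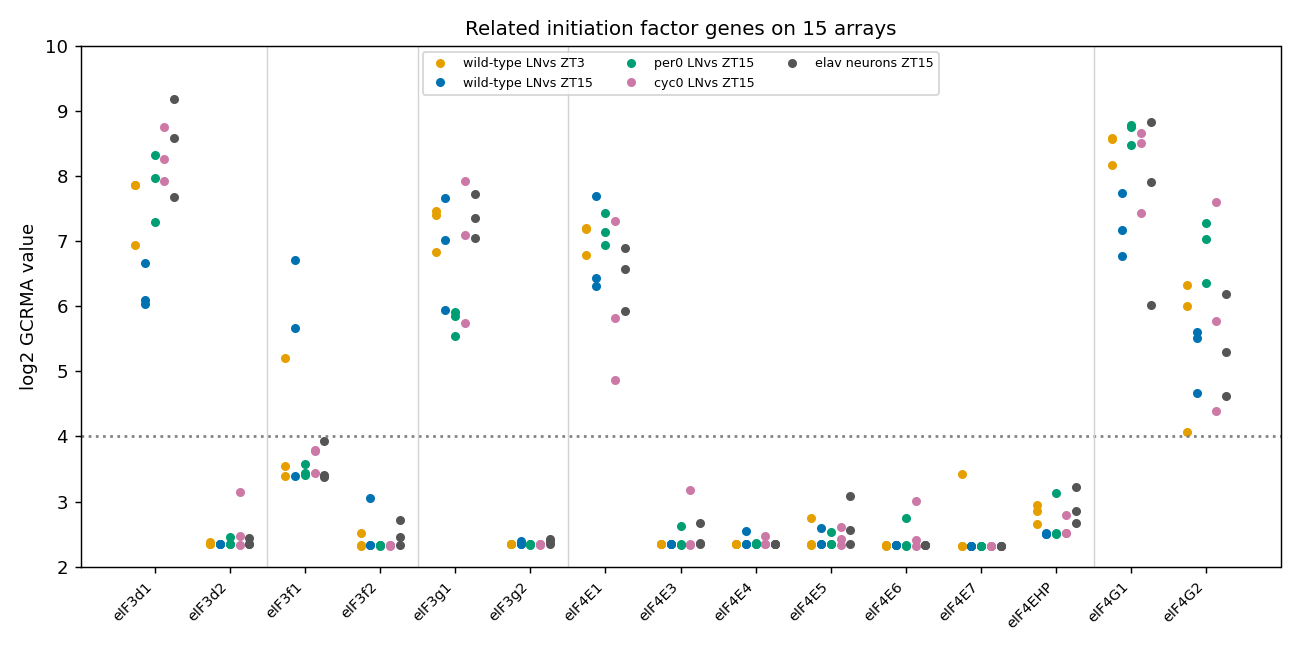
Log2 GCRMA value (vertical axis) of 15 related genes on 15 arrays, coloured by group, with a dotted line at the working level of 4 and grey lines between families. The second eIF3 genes and the eIF4E-type genes besides eIF4E1 stay below 4 on every array, while eIF4G2 lies above it.

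For wild-type LNvs at ZT15 against ZT3, the comparison of a night with a day phase, 1 of the 26 genes passed, eIF4B, in the lower direction, in which 0.36% of all probe sets passed. The differences had a median of -0.39 over the 26 genes and -0.06 over all probe sets, and 5 of 26 were above 0, against 45.8% of all probe sets. After centring and after quantile normalization the median of the 26 genes was -0.31 and -0.33. At ZT15 the arrays lay below those of ZT3 without overlap for eIF3a, eIF3d1, eIF3j, eIF4B, eIF4G1 and eIF5B, 6 genes, and above for eIF3e alone, against 8.73% and 6.04% of all probe sets. The summed linear level of the glia markers (repo, Gs2, nrv2, moody and Eaat1) was 286 to 442 at ZT3 and 139 to 304 at ZT15. None of the 4 tested glia markers passed between the times, with a median difference of -0.8. The part of the glia level in the differences of the 26 genes was not tested.

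For per0 against wild type at ZT15, eIF4B alone passed, higher in per0, as did 0.463% of all probe sets in that direction. These groups differ in reporter as well as in per. The median over the 26 genes was 0.36, against 0.24 over all probe sets, and after centring 0.19 against 0.06. Of the 26 genes 20 were above 0, against 59.8% of all probe sets. The per0 arrays lay above wild type without overlap for 8 genes (eIF3a, eIF3d1, eIF3i, eIF3j, eIF4B, eIF4G1, eIF4G2 and eIF5), which is 8 of 26 against 16.2% of all probe sets, and below for eIF3c and eIF3g1, against 7.22%.

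For cyc0 against wild type at ZT15, eIF4B and eIF3d1 passed, both higher in cyc0, as did 1.53% of all probe sets. These groups too differ in reporter as well as in cyc. The median over the 26 genes was 0.33, against 0.17 over all probe sets, and after centring 0.13 against -0.02. Of the 26 genes 17 were above 0, against 56.3%. Without overlap, eIF3a, eIF3d1, eIF3j, eIF3m and eIF4B lay above wild type and eIF3e below, against 16.5% and 7.15% of all probe sets. None of the 26 passed for cyc0 against per0 by limma, where 0.789% of all probe sets passed in either direction and 1 of the 26 had an unadjusted p under 0.05. There 12 of the 26 were above 0, against 47.4%, none lay above per0 without overlap, against 7.98%, and eIF3a alone lay below, against 6.47%. The summed linear level of the cell cycle markers (7 on the array) was 50.5 to 66.9 in wild type at ZT15, 71.3 to 165 in per0 and 85.8 to 225 in cyc0, and that of the glia markers 139 to 304, 64.1 to 105 and 81.9 to 159. None of the 6 tested cell cycle markers passed for per0 or for cyc0 against wild type, with median differences of 1.02 and 0.61. Of the 4 tested glia markers Gs2 alone passed, lower in per0 and in cyc0 than in wild type. The median difference of these 4 was -0.54 for per0 and -0.1 for cyc0. The part of either marker list in the differences was not tested.

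Against elav neurons at ZT15, the comparison that asks what sets the pacemaker neurons apart, wild-type LNvs had 3 calls among the 26 genes, eIF3e higher and eIF4B and eIF3d1 lower. The second probe set of eIF4B did not pass there (-0.16, adjusted p = 0.906 by limma). Over all probe sets 7.26% were higher and 5.25% lower, so that 1 and 2 of 26 are near the background. After quantile normalization 1 gene was higher and 4 were lower. The median difference of the 26 genes was 0.02, against 0.11 over all probe sets, and became -0.15 after centring and -0.35 after quantile normalization. In the fit as reported 13 genes were above 0, against 53.6% of all probe sets. Without overlap, eIF2A and eIF3e lay above elav neurons, against 16.5%, and eIF2Bepsilon, eIF3a, eIF3d1 and eIF4B below, against 14%.

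In per0 and in cyc0 none of the 26 passed against elav neurons by limma, where 10.2% and 5.61% of all probe sets passed, and 6 and 2 of the 26 had an unadjusted p under 0.05. The second probe set of eIF4B, which did not stand for the gene, passed by limma in per0 (1.98, adjusted p = 0.0455). It did not pass in cyc0 (1.03, adjusted p = 0.373). For per0 the median of the 26 genes was 0.58, against 0.32 over all probe sets, and 0.23 against -0.03 after centring. In the fit as reported 20 of them were above 0, against 61.4%. The per0 arrays lay above the elav arrays without overlap for 8 genes (eIF2A, eIF3a, eIF3e, eIF3i, eIF3j, eIF4E1, eIF4G2 and eIF5), against 20.3%, and below for eIF2Bepsilon and eIF3g1, against 9.93%. For cyc0 the median was 0.27, against 0.28 over all probe sets, and -0.10 after centring, with 16 genes above 0, against 61.6%. There eIF2A alone lay above without overlap, against 15.1%, and eIF2Bepsilon alone below, against 8.25%. The summed linear level of the 5 neuroblast markers was 369 to 590 in elav neurons and 30.3 to 49.8 in wild-type LNvs at ZT15, with all 4 tested members lower in the LNvs. That of the 7 cell cycle markers was 525 to 625 in elav neurons and 50.5 to 66.9 in wild-type LNvs at ZT15, with 4 of 6 tested members lower in the LNvs. In per0 and cyc0 the neuroblast markers summed to 28.5 to 87.1 and 31.2 to 103, with 3 of 4 lower than in elav neurons in each, and the cell cycle markers, at 71.3 to 165 and 85.8 to 225, had 2 of 6 lower in each. The 4 neuron markers summed to 371 to 706 in elav neurons and 940 to 1720 in wild-type LNvs at ZT15. Of their 3 tested members 2 were higher in the LNvs and 1 was lower. In per0 they summed to 642 to 1950, with 1 member higher and 1 lower than in elav neurons. In cyc0 they summed to 337 to 2600, with 1 member higher. The part of these marker levels in the differences against elav neurons was not tested. Of the 4 hemocyte markers srp and NimC1 stayed below 4 on every array, Hml reached 4 on 1 array and He on 4, and their summed level was 20.1 to 69.1 in wild type at ZT15 and at most 74.2, in cyc0. Both muscle markers stayed below 4 on every array.

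**Figure D5:**
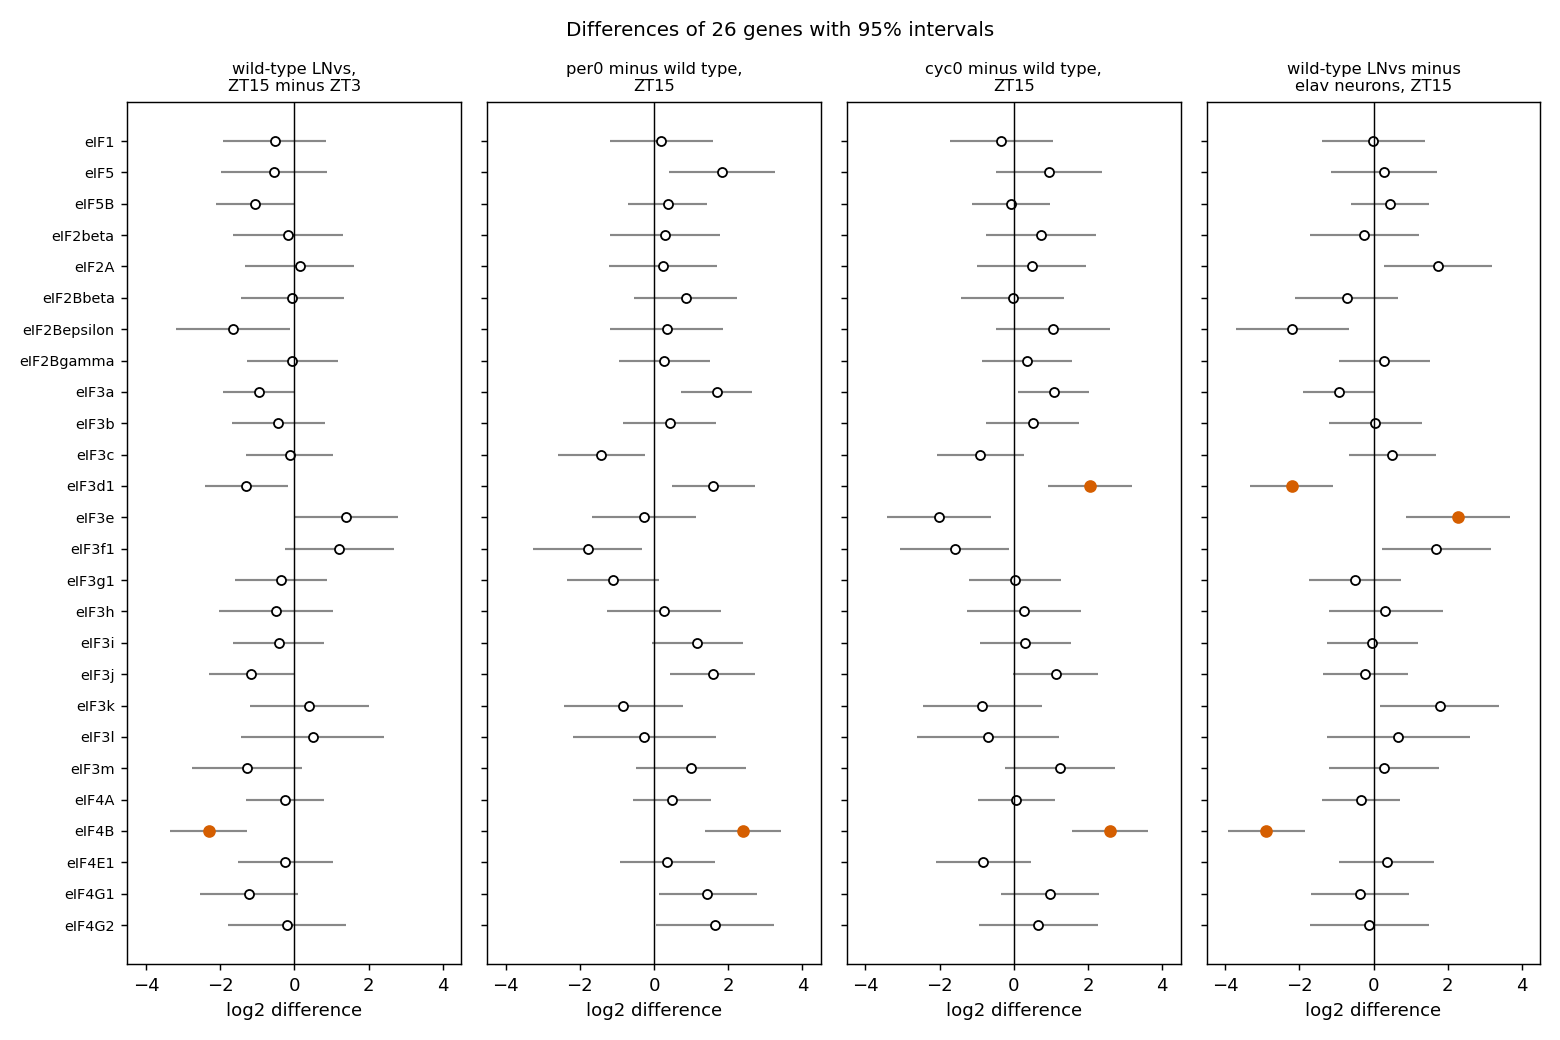
Log2 difference (horizontal axis) of each of the 26 tested genes in 4 comparisons, with lines for the 95% interval and filled points for genes with an adjusted p under 0.05. The filled points are eIF4B, by the probe set used, in all 4 panels, eIF3d1 in 2 and eIF3e in 1.

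In order of group means, wild-type LNvs at ZT15 were the lowest of the 5 groups for 10 of the 26 genes, against 24.1% of all probe sets, and ZT3 LNvs for 0, against 17.9%. Elav neurons were the lowest for 9, against 33.9%, cyc0 LNvs for 4, against 11.6%, and per0 LNvs for 3, against 12.6%. The 10 genes were eIF2beta, eIF2Bepsilon, eIF3a, eIF3d1, eIF3i, eIF3j, eIF4A, eIF4B, eIF4G1 and eIF4G2. The median over the 26 genes on an array was 6.29 to 6.47 in wild-type LNvs at ZT15, 6.47 to 7.03 at ZT3, 6.63 to 7.29 in per0, 5.94 to 7.36 in cyc0 and 5.73 to 6.30 in elav neurons.

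Other genes that act with the initiation factors were compared by list. Of 7 tested genes of the TOR pathway, which controls eIF4E through its inhibitor 4E-BP, 3 passed between wild-type LNvs and elav neurons, 2 higher and 1 lower in LNvs, against 7.26% and 5.25% of all probe sets. Lk6, the fly kinase that phosphorylates eIF4E, lay at 9.23, 8.54 and 8.37 in wild-type LNvs at ZT15 and 6.78, 5.79 and 5.46 in elav neurons, 2.70 higher in LNvs (adjusted p = 0.0102). The gene was higher in per0 than in elav neurons too (2.81, adjusted p = 0.0095), and its difference in cyc0 was 2.16 (adjusted p = 0.0589). The kinase gene Pdk1 was higher in wild-type LNvs than in elav neurons by 2.91 (adjusted p = 0.0101). The gene Tsc1, for a subunit of the complex that restrains TOR, was lower in wild-type LNvs, at 5.32, 4.51 and 3.15 against 6.78, 7.02 and 7.50 (log2 difference -2.77, adjusted p = 0.0137).

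Of 5 tested elongation and termination factors, eRF3, the GTPase of termination, passed, at 8.77, 8.59 and 9.45 in per0 against 6.59, 6.98 and 6.28 in elav neurons (2.32, adjusted p = 0.0185). In that comparison 10.2% of all probe sets passed in either direction. In cyc0 eRF3 gave 6.34, 7.90 and 5.38, against 9.06, 7.88 and 8.33 in wild type at ZT15 (-1.88, adjusted p = 0.0953). Of 11 tested cap- and poly(A)-associated regulators, larp, for an mRNA-binding protein, was higher in wild-type LNvs than in elav neurons (2.71, adjusted p = 0.0465), and me31B, for a repressor helicase, was higher in per0 than in elav neurons (3.06, adjusted p = 0.00914). Over all probe sets 7.26% were higher in the wild-type comparison, and 10.2% passed in either direction for per0. None of the 5 tested eIF2 kinase and stress-response genes (PEK, Gcn2, crc, PPP1R15 and Hsc70-3) passed any comparison by limma, with 2 of them under an unadjusted F test p of 0.05.

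Of 14 tested aminoacyl-tRNA synthetase genes, IleRS passed for per0 against elav neurons (1.97, adjusted p = 0.0313) and CysRS for cyc0 against wild type (2.53, adjusted p = 0.021). Over all probe sets 10.2% passed in either direction for per0 against elav neurons, and 1.53% were higher in cyc0 than in wild type. The median difference of the 14 genes for ZT15 against ZT3 was -0.72, with no call. Of 33 tested ribosomal protein genes 6 were higher in wild-type LNvs than in elav neurons, against 7.26% of all probe sets, and the list's median for cyc0 against wild type was -1.32, where that of the initiation factors was 0.33. RpS21 was lower in cyc0 than in wild type at ZT15 (-2.43, adjusted p = 0.0393). For ZT15 against ZT3 no gene of these 6 lists passed, with medians between -0.72 and 0.13.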

How the data were processed

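RNA of about 1000 sorted cells per array was amplified and hybridised to Affymetrix Drosophila arrays, per the labels' protocols. Per the submitters' processing notes, the authors used GCRMA, and the deposited values are on a log2 scale. The version, and which arrays were processed together, are not stated in the sources used here. The method models and removes background and then normalizes between arrays, which compresses low transcripts towards a common floor and can understate differences there. Amplification of RNA from few cells can lose a low transcript on single arrays.

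Of 18869 probe sets, 100 controls were left out. Names came from the platform annotation (13647 probe sets with 1 symbol, 402 with several, 4720 unnamed here). All 40 member identifiers matched the current gene table with the same symbol. One limma 3.58.1 model (R 4.3.3; lmFit, then eBayes, prior degrees of freedom 7.46) with 5 group means used all 15 arrays. It covered the 5829 probe sets that reached 4 on 3 or more arrays. Tests were two-sided, adjusted within each comparison by the Benjamini-Hochberg method, called at 0.05, and checked on simulated data.

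Values on every array are given for genes that passed and for the highest and lowest of each class with several tested genes. Those of other genes (eIF3a, eIF3j, eIF2A, eIF5 and the like) were chosen after their values were seen. The members and the lists of other genes were chosen with earlier results of these data known. Alternatives were another filter, centring, quantile normalization, another prior, array weights, fewer arrays, other probe set rules, the replicate number as a block and arrays left out. The number of arrays limits the precision. Summed marker levels add 2 to the power of the log2 values. No sequences are shown.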

Additional observations from a re-analysis of the deposited data

How the results depend on the processing

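The counts of called genes were small and moved with the settings. With no filter on low values they were 1 for per0 and 1 for cyc0 against elav neurons (eIF6 in both), 2 for per0 against wild type and 1 for cyc0 against wild type, and a stricter filter gave 2 for per0 against elav neurons. With no filter the 3 calls for wild type against elav neurons were eIF3d1, eIF4B and eIF6, all lower, and eIF3e was no longer called. Centring gave 1 in the F test, 1 for cyc0 against wild type and 1 for per0 against elav neurons. Quantile normalization gave 5 for wild type and 2 for per0 against elav neurons. Array weights gave 10 in the F test, 5, 5 and 1 for wild type, per0 and cyc0 against elav neurons, 5 and 4 for per0 and cyc0 against wild type, and 3 for cyc0 against per0. With all probe sets of a gene averaged the counts were 1 in the F test (eIF3d1), 0 between the times, 0 for per0 and 1 for cyc0 against wild type. Fits to the 6 arrays compared gave 0 between the times and for per0 and cyc0 against wild type, and 1 for per0 against elav neurons, with fewer arrays behind the spread. Without both wild-type ZT15 replicate 1 and cyc0 replicate 3 the counts were 5, 3 and 1 for wild type, per0 and cyc0 against elav neurons and 1 for cyc0 against wild type. Where no other cause is given, the cause was not tested.

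With each array left out in turn the counts ranged from 1 to 3 in the F test, 2 to 3, 0 to 2 and 0 to 1 for wild type, per0 and cyc0 against elav neurons, 0 to 1 between the times, 0 to 1 for per0 and 1 to 3 for cyc0 against wild type, and were 0 for cyc0 against per0. With the replicate number as a block the counts were 1 in the F test, 0 between the times (eIF4B adjusted p = 0.0619) and 1 for cyc0 against wild type, and the other counts stayed within 1.5 times of those reported. Same-numbered arrays did not deviate together (median r of 0.0152 over 30 pairs, range -0.192 to 0.196), so the numbers were not taken as pairs. No difference of eIF4B, eIF3d1 or eIF3e that passed changed sign under any alternative run, and choosing members by current symbol changed no count. Centring moved the median of all probe sets by over 0.1 in 5 comparisons and quantile normalization in 3 of them, for example from 0.32 to -0.03 and 0.10 for per0 against elav neurons.

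Over all probe sets, array weights called 2244 in place of 830 in the F test, 1286 in place of 597 and 826 in place of 327 for per0 and cyc0 against elav neurons, 456 in place of 69 and 943 in place of 169 for per0 and cyc0 against wild type, and 817 in place of 46 for cyc0 against per0. With no filter they were 474, 454, 347, 40 and 24 in the F test, for wild type and per0 against elav neurons, for per0 against wild type and for cyc0 against per0. Fits to 6 arrays called 6 between the times in place of 46, 6 for per0 and 35 for cyc0 against wild type, 169 for cyc0 against elav neurons and 21 for cyc0 against per0. Averaged probe sets gave 24 between the times and 22 for cyc0 against per0. Centring gave 111 and 265 for per0 and cyc0 against wild type, and quantile normalization 111 for per0 against wild type and 491 for cyc0 against elav neurons. Without the 2 arrays 200 were called for per0 against wild type. With each array left out in turn the counts over all probe sets ranged from 545 to 939 in the F test, 491 to 805, 246 to 683 and 166 to 455 for wild type, per0 and cyc0 against elav neurons, 20 to 47 between the times, 25 to 142 and 62 to 258 for per0 and cyc0 against wild type, and 20 to 67 for cyc0 against per0. The lowest came without elav replicate 1 (F test and wild type against elav neurons), per0 replicate 1 (per0 against elav neurons), per0 replicate 3 (per0 against wild type), ZT3 replicate 2 (between the times) and cyc0 replicate 1 (the other comparisons). The highest for per0 against wild type came without wild-type ZT15 replicate 1 and for cyc0 against wild type without cyc0 replicate 2.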
